A study of Mus musculus with 12 samples.

Results

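The genes described here were 10 that the vessels of the brain use as a barrier and as an exchange surface, namely Abcb1a, Abcg2, Abcc4, Slco1a4, Slco1c1, Slc2a1, Mfsd2a, Cldn5, Pecam1 and Flt1. They were taken by symbol from the deposited table of normalized counts of mouse cortex, where all 10 were found among 17202 genes, and all 10 passed the filter of a mean normalized count of at least 10 that left 17111 genes for testing. Cortex of 12 male mice was sequenced, 3 per group, and the groups crossed genotype (WT or CD) with treatment (VEH or VERCUR). In CD mice, a model of Williams-Beuren syndrome, 1 copy of the interval between Gtf2i and Fkbp6 on chromosome 5 was deleted, while WT mice kept both. The CD line had been crossed with the Thy1-YFP line B6.Cg-Tg(Thy1-YFPH)2Jrs/J, which marks pyramidal neurons, and the strain was labelled C57Bl6. VERCUR mice drank curcumin (60 mg/kg/day) and verapamil (10 mg/kg/day by the labels, a lower dose by the methods of the study) from 8 weeks of age for 1 month, and VEH mice, labelled untreated, drank the DMSO vehicle. All mice were 16 weeks old by the labels, and somewhat younger by those methods. There were no mice on verapamil or curcumin alone among these libraries, so the agents cannot be told apart.

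Endothelial cells of brain capillaries are joined by tight junctions, so that most substances cross only through transporters in their membranes. Efflux pumps of the ABC family return lipophilic drugs to the blood, and solute carriers bring in glucose, thyroid hormone, organic anions and lysophospholipids that carry omega-3 fatty acids. Verapamil is a calcium channel blocker that also inhibits P-glycoprotein, the pump that Abcb1a encodes at this barrier. In whole cortex the endothelium is a minor cell type, and a lower value can come from fewer endothelial cells or from less RNA per cell, which bulk libraries cannot tell apart.

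No member was called in any of the 8 comparisons made, where a call required a rise or a fall of over 25% together with an adjusted p below 0.05 (for the interaction, the adjusted p alone). The largest difference by its p was a lower level of the glucose transporter Slc2a1 in VEH-CD than in VEH-WT (fold change 0.768, adjusted p = 0.159 by limma), followed by a lower level of the thyroid hormone transporter Slco1c1 in the same comparison (fold change 0.830, adjusted p = 0.222). P-glycoprotein's Abcb1a lay slightly higher in VERCUR than in VEH mice (fold change 1.129), with an interval that includes no difference.

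Promoter windows of 9 of the 10 members (all but Pecam1), from 250 bases before to 50 after a transcription start, were matched by symbol in RefSeq (GRCm38.p6), and the windows of 4 members are shown because the results below turn on them. Slc2a1 and Slco1c1 had the smallest p values between the genotypes, Mfsd2a varied together with Slc2a1 from mouse to mouse, and Cldn5 had the widest spread. Each is printed 5′ to 3′ on the strand of its gene, and capitals mark matches to the 8 short motifs searched on both strands, which are spelled out after the windows.
Slc2a1 (chr4:119108495-119108794, plus strand): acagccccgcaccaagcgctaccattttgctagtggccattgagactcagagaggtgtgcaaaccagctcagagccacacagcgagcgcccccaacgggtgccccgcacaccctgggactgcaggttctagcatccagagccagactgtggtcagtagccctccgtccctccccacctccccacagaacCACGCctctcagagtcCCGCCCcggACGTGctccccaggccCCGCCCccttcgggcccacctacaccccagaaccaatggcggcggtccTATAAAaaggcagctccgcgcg
Mfsd2a (chr4:122961139-122961438, minus strand): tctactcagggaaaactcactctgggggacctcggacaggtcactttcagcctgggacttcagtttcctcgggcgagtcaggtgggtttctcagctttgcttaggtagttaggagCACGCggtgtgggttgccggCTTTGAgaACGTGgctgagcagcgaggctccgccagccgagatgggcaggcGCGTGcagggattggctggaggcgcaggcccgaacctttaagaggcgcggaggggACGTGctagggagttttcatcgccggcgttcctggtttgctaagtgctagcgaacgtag
Slco1c1 (chr6:141524104-141524403, plus strand): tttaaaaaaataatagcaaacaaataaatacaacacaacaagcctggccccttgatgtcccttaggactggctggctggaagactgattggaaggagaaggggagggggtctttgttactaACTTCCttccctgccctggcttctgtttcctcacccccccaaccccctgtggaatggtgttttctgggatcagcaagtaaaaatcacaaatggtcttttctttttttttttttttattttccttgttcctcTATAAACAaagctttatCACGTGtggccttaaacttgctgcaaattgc
Cldn5 (chr16:18776597-18776896, plus strand): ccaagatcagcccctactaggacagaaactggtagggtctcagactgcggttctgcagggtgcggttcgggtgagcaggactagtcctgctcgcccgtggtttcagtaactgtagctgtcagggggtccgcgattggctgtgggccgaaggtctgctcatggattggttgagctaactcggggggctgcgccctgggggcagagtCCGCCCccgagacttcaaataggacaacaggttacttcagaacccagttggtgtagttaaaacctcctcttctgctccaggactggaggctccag
The Slc2a1 window held 2 GC boxes (GGGCGG, in 35.7% of the 32851 windows of the table), 1 match to the TATA motif (TATAAA, in 13.6%), which begins 28 bases after the annotated start, 1 hypoxia response core (ACGTG, in 19.6%) and 1 xenobiotic response core (GCGTG, in 32.4%). These last 2 motifs share 4 letters, and each core is short enough to occur often. Mfsd2a held 2 of each core and 1 TCF/LEF core (CTTTGA, in 16.0%), but no GC box or TATA motif of these letters. In Slco1c1 a TATA motif, which begins 2 bases after the start, overlapped a forkhead core (TAAACA, in 13.4%), and an ETS core (GGAAGT, in 23.8%) lay upstream, while a palindromic site gave 2 matches to the hypoxia response core, 1 on each strand. Cldn5 held 1 GC box only. The SOX core ACAATG, found in 12.6% of windows, was in none of these 4. GC content was 65.3% for Slc2a1, 60.3% for Mfsd2a, 58.3% for Cldn5 and 42.0% for Slco1c1, against a median of 52.7% over all windows. These matches describe letters and were not tested for binding.

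The members lie on 6 chromosomes of GRCm38 by the GENCODE M21 annotation, and none lies in the deleted interval. On the deleted chromosome itself, Abcb1a (chr5:8660077-8748575, plus strand) is 125.5 Mb and Flt1 (chr5:147561604-147726011, minus strand) 12.2 Mb from the interval between Gtf2i and Fkbp6. Abcg2 (chr6:58584523-58695676), Slco1c1 (chr6:141524368-141570177) and Slco1a4 (chr6:141805440-141856199) share chromosome 6, and Slc2a1 (chr4:119108711-119137983) and Mfsd2a (chr4:122946850-122961188) share chromosome 4. Abcc4 lies at chr14:118482692-118706219, Cldn5 at chr16:18776847-18778262 and Pecam1 at chr11:106654217-106750628. The annotation used for counting is not given in the sources used here, so the counted gene models may differ from these.

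The libraries held 40290000 to 56480000 counted reads each. The targeted interval checked the labels, since Gtf2i had normalized counts of 11579 to 12750 in the 6 WT mice and 5916.5 to 6729.4 in the 6 CD mice. The library of VERCUR-CD mouse 2 stood apart from the others, with long genes 0.305 higher than short genes on the log2 scale where the other 11 mice ranged from -0.174 to 0.106, and values without it are given below for results of VERCUR-CD that it moved. This length gradient also differed between the vehicle groups, at -0.0114, 0.0866 and 0.106 in VEH-WT mice 1, 2 and 3 and -0.174, 0.043 and -0.16 in VEH-CD. Values with the gradient as a covariate are therefore given for some results of that comparison. These are Slco1c1, Slc2a1, Cldn5, Slc7a5, Slc7a1, Lrp1, Tjp1, Fzd4 and Vegfa. All other differences between the vehicle groups are given without that covariate. Cortex markers fitted the tissue, with neuronal markers summing to between 535000 and 641400 normalized counts per mouse, whereas 7 choroid plexus markers together gave 161.6 to 248.1. None of the 21 endothelial markers outside the members was at 0 in any mouse. Their summed level was 12480 to 14240 in VEH-WT, 11440 to 15290 in VEH-CD, 12780 to 15370 in VERCUR-WT and 13790 to 14880 in VERCUR-CD, so that all groups overlapped.

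Levels can be compared between genes only per length of exon, taken here as the union of all exons annotated in GENCODE M21. That union ran from 1.416 kb for Cldn5 to 13.504 kb for Flt1. It can be longer than the transcripts expressed, which were not determined, so the order of levels depends on this choice. On that scale Cldn5, the main claudin of the endothelial tight junction, averaged 1228 ± 306 normalized counts per kb (SD, n = 12 mice) and Slc2a1 averaged 1119 ± 147, and these 2 genes overlapped in range. The next 2 were Slco1c1 at 446.2 ± 40.5 and the lysophospholipid transporter Mfsd2a at 366.2 ± 47.0, with no overlap between Slc2a1 and Slco1c1. Abcb1a followed at 246.7 ± 31.7, Slco1a4 at 236.2 ± 27.5, Flt1 at 211.6 ± 26.0 and Pecam1 at 149.2 ± 16.6, each overlapping its neighbour in this order. The other 2 efflux pumps were the lowest, Abcg2 at 86.86 ± 7.52 and Abcc4 at 69.13 ± 10.2, overlapping each other but not Pecam1.

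**Figure D1:**
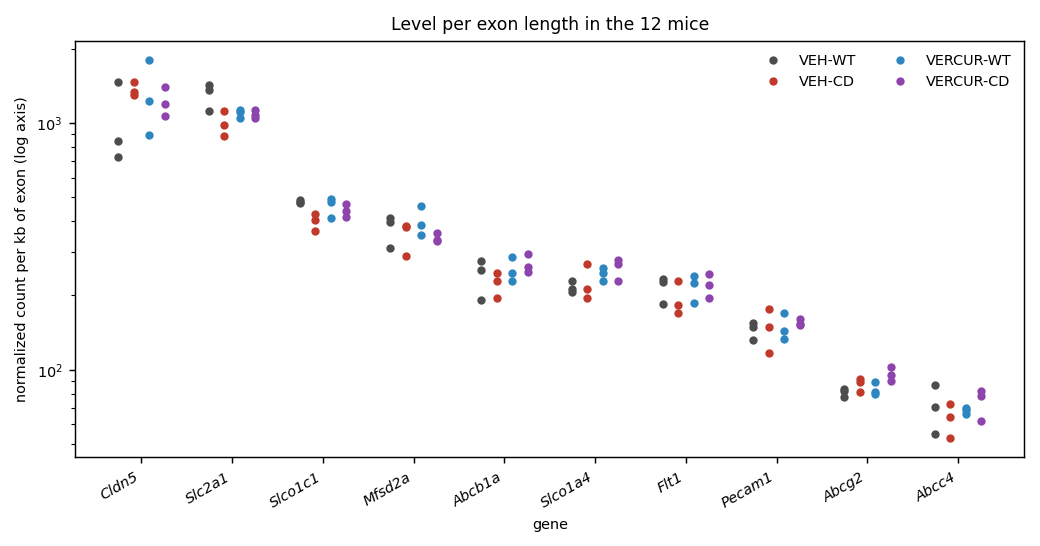
Normalized count per kb of exon (log axis) of the 10 genes in the 12 mice, coloured by group and ordered by mean. Cldn5 and Slc2a1 lie highest, at means of 1228 and 1119 per kb, and Abcg2 and Abcc4 lowest, at 86.86 and 69.13, while the 4 groups overlap for most genes.

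Among the efflux pumps, Abcb1a encodes P-glycoprotein, which exports many drugs, verapamil being one of its inhibitors. Normalized counts of Abcb1a were 1388, 1054 and 1509.7 in VEH-WT mice 1, 2 and 3, and 1356, 1074 and 1260.2 in VEH-CD. Under VERCUR they were 1569, 1346 and 1259 in WT and 1362, 1615 and 1432 in CD. VEH-WT mouse 2 and VEH-CD mouse 2 were the lowest of the 12, and every VERCUR-CD mouse lay above every VEH-CD mouse, the lowest at 1362 and the highest at 1356. The log2 fold change of VERCUR-CD against VEH-CD was 0.26 (95% interval -0.03 to 0.55, adjusted p = 0.867 by limma), and in all genes tested 3.71% had groups that did not overlap with VERCUR-CD higher. Without VERCUR-CD mouse 2, the highest, the log2 fold change was 0.19 (adjusted p = 1 by limma), and with the level of the endothelial markers as a covariate it was 0.17. Over both genotypes VERCUR against VEH gave 0.17 (interval -0.03 to 0.38, adjusted p = 1), and CD against WT over both treatments 0.00 (interval -0.21 to 0.20). Sample quality weights, which count noisier libraries less (0.282 for VERCUR-CD mouse 2), gave 0.09 for VERCUR against VEH (adjusted p = 0.864 by limma).

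The paralogue Abcb1b, which also encodes a P-glycoprotein and begins 49.6 kb beyond the end of Abcb1a, was counted at 80.58 to 126.07 over the 12 mice. For VERCUR against VEH its log2 fold change was -0.09 (interval -0.29 to 0.10), opposite in sign to that of Abcb1a. It was -0.26 within WT (interval -0.54 to 0.01) and 0.08 within CD (interval -0.20 to 0.35). All VERCUR-CD mice lay above all VERCUR-WT mice, as in 3.91% of all genes, at 0.37 (interval 0.09 to 0.64). This difference was not called after adjustment over all genes, and it was not recomputed without VERCUR-CD mouse 2. How the counting divided reads that match both copies is not given in the sources used here, so the split between them is uncertain. RefSeq places a start of Abcb1a 93.0 kb upstream of the GENCODE gene.

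Abcg2, the breast cancer resistance protein, is the other large drug pump of the mouse barrier, and its spread was the smallest of the 10 genes. Its normalized counts were 678, 629 and 668 in VEH-WT, 747, 660.5 and 727 in VEH-CD, 726, 652 and 659.8 in VERCUR-WT, and 731, 779 and 839 in VERCUR-CD. All VERCUR-CD mice lay above all WT mice of either treatment, as 3.91% of all genes tested did relative to VERCUR-WT and 6.56% relative to VEH-WT. The log2 fold change of VERCUR-CD was 0.25 ± 0.081 (SE) against VEH-WT (adjusted p = 0.420 by limma) and 0.20 ± 0.081 against VERCUR-WT (adjusted p = 1). For CD against WT over both treatments it was 0.16 ± 0.057 (adjusted p = 0.381), with mean normalized counts of 747.3 in CD and 669.0 in WT. Leaving out VERCUR-CD mouse 2 gave 0.25 against VEH-WT. The 3 comparisons share samples and are not independent.

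Abcc4, an exporter of organic anions and nucleotide analogues, varied most of the pumps. Its normalized counts were 452, 351 and 556 in VEH-WT, 463, 336 and 412 in VEH-CD, 439, 423 and 447 in VERCUR-WT, and 395, 524 and 501 in VERCUR-CD. The values of VEH-WT alone spanned nearly those of all 12 mice. The log2 fold changes lay between -0.15 (VEH-CD against VEH-WT, interval -0.51 to 0.20) and 0.23 (VERCUR-CD against VEH-CD, interval -0.13 to 0.59), with unadjusted p values from 0.184 to 0.863 over the pairwise comparisons. Without VERCUR-CD mouse 2, the highest of its group, the latter was 0.15.

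Slco1a4 and Slco1c1 encode organic anion transporting polypeptides, the first of broad specificity and the second a carrier of thyroxine that astrocytes of the mouse brain also express. For Slco1a4 the normalized counts were 1361, 1324 and 1464 in VEH-WT, 1723, 1256 and 1358 in VEH-CD, 1586, 1664 and 1475 in VERCUR-WT, and 1469, 1715 and 1784 in VERCUR-CD. Each VERCUR mouse lay above each VEH-WT mouse, the nearest values being 1469 and 1464 (4.48% of all genes did so for VERCUR-WT and 6.56% for VERCUR-CD), but VEH-CD mouse 1 was among the highest of all. Over both genotypes the log2 fold change of VERCUR against VEH was 0.20 (interval 0.03 to 0.37, adjusted p = 1 by limma). Under the alternative settings it ranged from 0.13 with the endothelial markers as a covariate to 0.26 without VEH-CD mouse 1, and it was 0.18 without VERCUR-CD mouse 2. Its adjusted p lay between 0.684 and 1 under all of them.

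Slco1c1 had normalized counts of 2492, 2469.7 and 2525 in VEH-WT, with a CV of 1.11%, and of 2219, 2108 and 1896 in VEH-CD. In VERCUR-WT it was counted at 2561, 2480.35 and 2135, and in VERCUR-CD at 2166, 2438 and 2282. All VEH-CD mice therefore lay below all VEH-WT mice, as did 11.4% of all genes tested, and all VERCUR-CD mice lay below them too (7.33%), while the VERCUR groups overlapped each other. Relative to VEH-WT, VEH-CD had a log2 fold change of -0.27 (interval -0.44 to -0.09, adjusted p = 0.222 by limma), and that of VERCUR-CD against VERCUR-WT was -0.06 (interval -0.23 to 0.12), or -0.10 without VERCUR-CD mouse 2. Their difference, the interaction of genotype and treatment, was 0.21 (interval -0.03 to 0.46, adjusted p = 0.816), so a different genotype effect under VERCUR was not shown. With sample quality weights, which give noisier libraries less weight, the VEH-CD to VEH-WT difference of Slco1c1 was -0.30 with an adjusted p = 0.0411 by limma, still short of the fold change required for a call. Over all alternatives the adjusted p of this difference ran from 0.0411 to 0.644. The difference was -0.26 with the endothelial markers as a covariate and -0.21 with the length gradient as one.

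Slc2a1 encodes GLUT1, which carries glucose across the capillary endothelium and, in a less glycosylated form, into astrocytes. Its normalized counts were 3916, 5002 and 4764 in VEH-WT and 3936, 3119 and 3449 in VEH-CD, followed by 3661, 3872 and 3973 in VERCUR-WT and 3767, 3662 and 3974 in VERCUR-CD. VEH-WT mice 2 and 3 were the highest of all 12, whereas VEH-WT mouse 1 lay just below VEH-CD mouse 1, so the groups overlapped. Mean values were 4561 ± 571 (SD, n = 3) in VEH-WT and 3501 ± 411 in VEH-CD. The log2 fold change was -0.38 (interval -0.59 to -0.17, adjusted p = 0.159 by limma), and under the alternative settings it lay between -0.49 (without VEH-WT mouse 1) and -0.30 (without VEH-CD mouse 2), with an adjusted p from 0.054 to 0.481. It was -0.42 with the length gradient as a covariate. VERCUR-WT was also lower than VEH-WT, at -0.24 (interval -0.45 to -0.03, adjusted p = 0.944). That difference was -0.17 without VEH-WT mouse 2, the highest mouse, and -0.35 without VEH-WT mouse 1.

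Between the VERCUR groups the level of Slc2a1 differed by -0.01 (interval -0.22 to 0.20), and the interaction of genotype and treatment was 0.37 (interval 0.07 to 0.66, adjusted p = 0.816 by limma). VERCUR-CD against VEH-CD gave 0.12 (interval -0.09 to 0.33, adjusted p = 0.867), and VERCUR-CD against VEH-WT gave -0.26 (adjusted p = 0.495). Without VERCUR-CD mouse 2 these were 0.15 and -0.23, the difference between the VERCUR groups was 0.01 and the interaction 0.39. The comparisons against VEH-WT and the interaction share the VEH-WT mice, with their 2 high values. Antisense genes Gm12867 and Gm12868 overlap the 3′ part of Slc2a1. Neither is in the table, and whether counting used strand is not given in the sources used here.

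Mfsd2a encodes the endothelial carrier of lysophosphatidylcholine with docosahexaenoic acid, and it also restrains transcytosis. Normalized counts of Mfsd2a were 703, 924 and 892 in VEH-WT, 850.06, 649.9 and 862 in VEH-CD, 791, 1042 and 867 in VERCUR-WT, and 746, 757 and 805 in VERCUR-CD. The VERCUR-CD mice were close together, with a CV of 4.04%, and they overlapped every other group. The log2 fold change of VERCUR-CD against VERCUR-WT was -0.22 (interval -0.51 to 0.08, adjusted p = 1 by limma), and those of the other pairwise comparisons lay between -0.12 and 0.10.

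Cldn5 encodes claudin-5, the claudin that seals the endothelial junction against small molecules. It was counted at 2078, 1028 and 1199 in VEH-WT and at 2078, 1886 and 1838 in VEH-CD, while VERCUR-WT mice had 1746, 2559 and 1272 and VERCUR-CD mice 1986, 1506 and 1694. The lowest and the highest mouse of the series differed 2.49 times, and the 2 WT groups were the most scattered (CV of 39.3% in VEH-WT and 35.0% in VERCUR-WT, against 6.58% in VEH-CD and 14.0% in VERCUR-CD). Within groups, the SD of Cldn5 on the log2 scale was larger than that of 99.7% of the genes nearest to it in mean level. Although its log2 fold change between VEH-CD and VEH-WT was the largest of the members in size, at 0.50, the interval ran from -0.06 to 1.05 (adjusted p = 0.471 by limma). Without VEH-WT mouse 1 it was 0.80 (adjusted p = 0.197), and without VEH-WT mouse 2 it was 0.29 (adjusted p = 0.759), within a range of adjusted p from 0.197 to 0.771 over all alternatives. With the length gradient as a covariate it was 0.34.

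Pecam1, the adhesion molecule CD31 of endothelial cell borders, differed least. Its normalized counts were 931, 819 and 967 in VEH-WT, 1103, 729 and 932 in VEH-CD, 891, 1057 and 827 in VERCUR-WT, and 953, 997 and 947 in VERCUR-CD. The VEH-CD mice held both the highest and the lowest value. Its log2 fold changes over the pairwise comparisons lay between 0.01 and 0.10, with unadjusted p values of at least 0.489, and the interval for VEH-CD against VEH-WT ran from -0.28 to 0.30.

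Flt1 encodes VEGF receptor 1, which binds VEGF-A on endothelial cells. Normalized counts of Flt1 were 3159, 2495 and 3073 in VEH-WT, 3086, 2288 and 2469 in VEH-CD, 3249, 3029.6 and 2512 in VERCUR-WT, and 2645, 3300.4 and 2978 in VERCUR-CD. Every group overlapped every other. The log2 fold change was -0.16 for VEH-CD against VEH-WT (interval -0.45 to 0.13, adjusted p = 0.664 by limma) and 0.19 for VERCUR-CD against VEH-CD (interval -0.10 to 0.48, adjusted p = 0.867). Without VERCUR-CD mouse 2, the highest of the 12, the latter was 0.11.

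**Figure D2:**
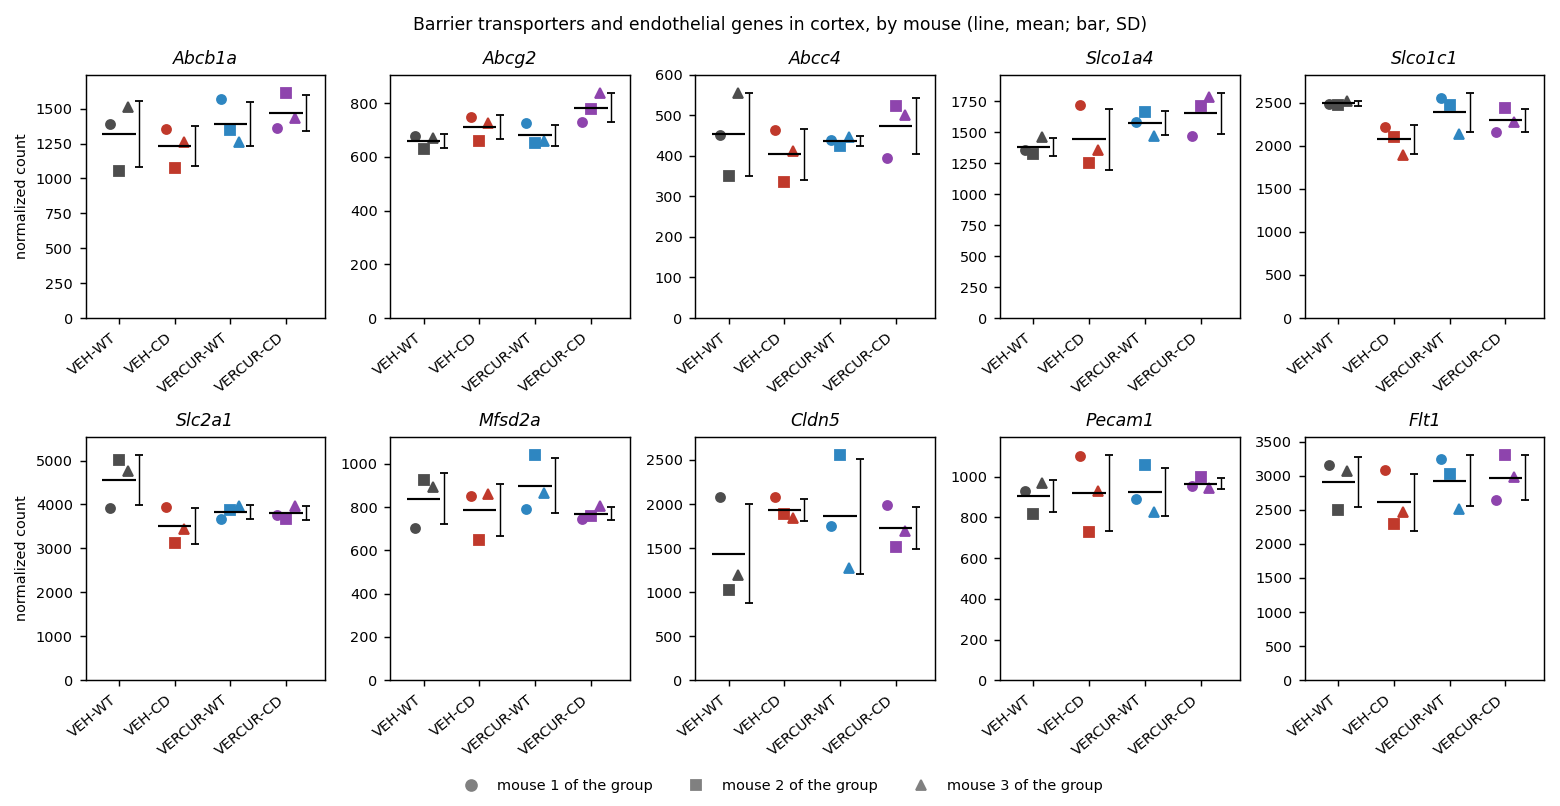
Normalized counts of the 10 genes in each mouse (points, shaped by mouse number), with the group mean (line) and SD (bar) of 3 mice, on axes that start at 0. Slc2a1 is highest in VEH-WT mice 2 and 3 (5002 and 4764), Slco1c1 is lower in all VEH-CD than in all VEH-WT mice, and Cldn5 scatters most within the WT groups.

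Read by comparison, the number of members called was 0 of 10 in VEH-CD against VEH-WT, where 0.257% of all genes were called. The share of all genes called was 0.146% in VERCUR-CD against VERCUR-WT, 0.199% in VERCUR-CD against VEH-WT and 0.321% in CD against WT over both treatments. No gene of the table was called (0%) in VERCUR-CD against VEH-CD, VERCUR-WT against VEH-WT, VERCUR against VEH over both genotypes or the interaction, although by limma 605, 893, 506 and 1035 genes had an unadjusted p under 0.05. With so few calls in all, 0 of 10 members is close to the background.

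At an unadjusted p under 0.05, VEH-CD against VEH-WT held 2 of 10 members, Slc2a1 and Slco1c1, both lower, where 6.73% of all genes were lower and 5.07% higher by that rule. Of the 10 members 6 had a log2 fold change below 0 and 4 above, with a median of -0.09 beside -0.0028 over all genes. Between the VERCUR groups 1 member passed, Abcg2, higher (2.19% of all genes, with 1.91% lower), and the median was 0.05. In VERCUR-CD against VEH-CD none passed (2.09% of all genes higher and 1.44% lower), with 8 members above 0 and a median of 0.14. VERCUR-WT against VEH-WT held 1, Slc2a1, lower (3.25%, with 1.97% higher), with a median of 0.04.

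VERCUR-CD against VEH-WT held Abcg2 and Slco1a4 higher (3.92% of all genes) and Slc2a1 lower (4.76%). Over both treatments, CD against WT held Abcg2 higher (4.78%) and Slco1c1 and Slc2a1 lower (4.86%). For VERCUR against VEH over both genotypes 1 member passed, Slco1a4, higher (1.45%, with 1.51% lower), while 9 of 10 members had a log2 fold change above 0, with a median of 0.10 beside 0.00015 over all genes. The interaction held Slc2a1, above 0 (3.72%, with 2.33% below 0). Without VERCUR-CD mouse 2, the members in VERCUR-CD against VEH-WT at an unadjusted p under 0.05 numbered 1 higher and 0 lower, with a median of 0.04 in place of 0.09, and the median was 0.02 between the VERCUR groups and 0.06 for VERCUR against VEH, where 9 members stayed above 0. The 9 genes are counted in the same cells and libraries, so their shared sign is not evidence from 9 separate measurements. The astrocyte markers lay the same way for VERCUR against VEH, 9 of 9 being above 0 with a median of 0.09, as did 18 of 21 endothelial markers outside the members with a median of 0.07. Their part in the members' values was tested for the endothelial markers only, as a covariate, and not for the astrocyte markers.

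**Figure D3:**
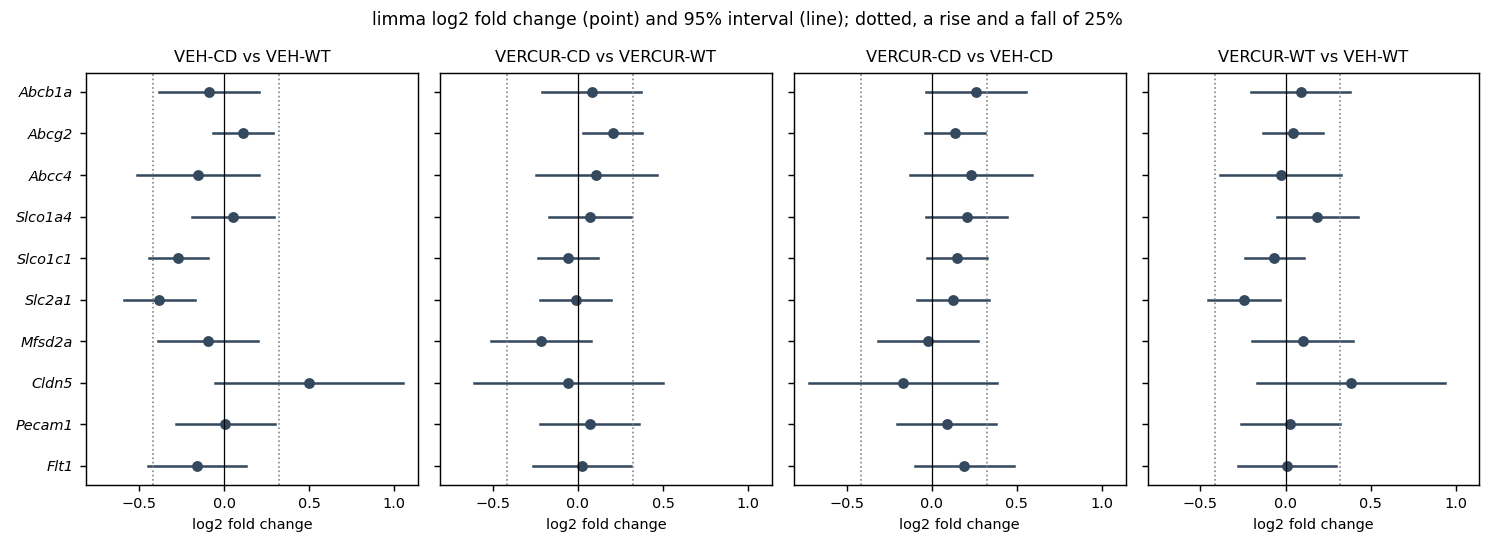
Log2 fold change of each gene in 4 comparisons (points) with its 95% interval from limma (lines); dotted lines mark a fall and a rise of 25%. Slc2a1 (-0.38) and Slco1c1 (-0.27) lie below 0 in VEH-CD against VEH-WT with intervals that exclude 0, and Cldn5 has the widest interval in every panel.

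From mouse to mouse within the groups the members varied in blocks. VEH-WT mouse 2 was the lowest of its group in 8 of 10 members (all but Slc2a1 and Mfsd2a, in which it was the highest), and VEH-CD mouse 2 was the lowest of its group in 8, all but Slco1c1 and Cldn5. VEH-CD mouse 1 was the highest of its group in 9, Mfsd2a being the exception. Over the 12 mice, centred within group, the log2 levels of Abcb1a and Flt1 had the highest correlation of the 45 pairs (Pearson's r = 0.88, Spearman's rho = 0.87), followed by Abcb1a and Abcc4 (r = 0.85, rho = 0.76) and by Slco1a4 and Flt1 (r = 0.81, rho = 0.71). Slc2a1 and Mfsd2a also varied together (r = 0.80, rho = 0.69). Slc2a1 had r = -0.10 with Abcb1a and r = -0.02 with Flt1, but 0.51 with Slco1a4 and 0.36 with Pecam1. Mfsd2a had r = -0.03 with Abcb1a and 0.04 with Flt1, but 0.48 with Slco1a4 and 0.56 with Pecam1. Cldn5 had r = -0.45 (rho = -0.31) with Slc2a1, the lowest of all pairs, and at most 0.47 (with Pecam1). The median r was 0.45, and 37 of 45 pairs were above 0. These correlations describe 12 libraries, in which genes share depth, dissection and cell content, and no p is given for them.

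**Figure D4:**
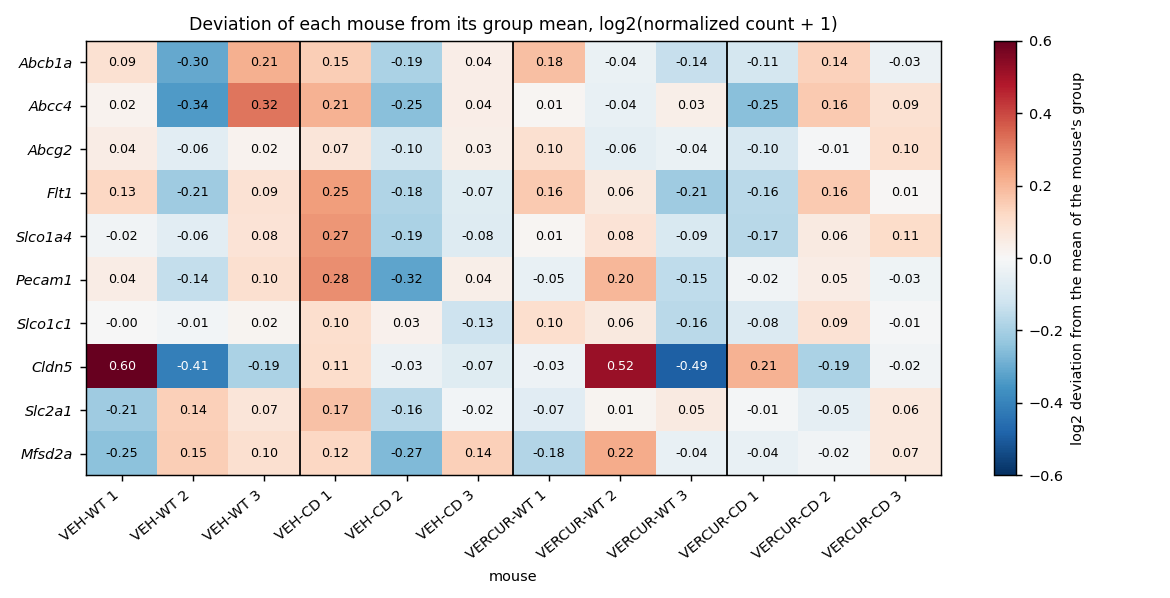
Deviation of each mouse from the mean of its group, in log2(normalized count + 1), for the 10 genes (rows) and 12 mice (columns); red is above and blue below the group mean. VEH-WT 2 and VEH-CD 2 are blue across most rows, Slc2a1 and Mfsd2a have the opposite sign to the pumps in VEH-WT 1 and 2, and Cldn5 has the largest deviations.

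The summed endothelial markers outside the members followed the same mice, VEH-CD mouse 2 being the lowest of all 12 at 11438 and VEH-CD mouse 1 near the top at 15290. Outside the members, the genes whose centred level was most like that of Abcb1a over the 12 mice were Idh1 (r = 0.963), Tril (0.954), Il1rl2 (0.954), Cpt1a (0.947) and Slc1a3 (0.946). Those most like the mean of the 10 members were Slc37a2 (r = 0.965), Podxl (0.937), Reck (0.935), Aqp6 (0.929) and Maob (0.928). These were the highest of all genes tested and are given as a description.

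Other genes of barrier function were taken as lists, and none of their genes was called in any comparison. Among 20 other barrier transporters and receptors, 14 had a log2 fold change below 0 in VEH-CD against VEH-WT, with a median of -0.04. Of the 20, 4 had an unadjusted p under 0.05, all lower, where 6.73% of all genes were lower and 5.07% higher by that rule. Slc7a5, the large neutral amino acid transporter LAT1, stood at -0.25 (adjusted p = 0.218 by limma), with 3637, 3982 and 3951 normalized counts in VEH-WT and 3509.9, 3025 and 3232 in VEH-CD. The cationic amino acid transporter Slc7a1 (-0.27, adjusted p = 0.321) and the lipoprotein receptor Lrp1 (-0.16, adjusted p = 0.325) were next. With the length gradient as a covariate, added after seeing the data, Slc7a5 stood at -0.25, Slc7a1 at -0.13 and Lrp1 at -0.15. For VERCUR against VEH the smallest p values were those of the transferrin receptor Tfrc (0.21, adjusted p = 1), the cholesterol exporter Abca1 (0.19, adjusted p = 1) and the glutamine transporter Slc38a3 (0.11, adjusted p = 1), with a list median of 0.03.

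Of 13 tight and adherens junction genes, 1 passed an unadjusted p of 0.05 between the vehicle groups, where 6.73% of all genes were lower and 5.07% higher by that rule. The scaffold Tjp1 (ZO-1) stood at -0.32 (adjusted p = 0.416 by limma), cingulin's Cgn at 0.35 (adjusted p = 0.501) and p120-catenin's Ctnnd1 at -0.17 (adjusted p = 0.591), so that the junction genes, like the members, pointed both ways, with a median of -0.05. Tjp1 stood at -0.13 with the length gradient as a covariate. Under VERCUR the junctional adhesion molecules Jam2 (0.19, adjusted p = 1) and Jam3 (-0.14, adjusted p = 1) led, followed by Tjp1 (0.11, adjusted p = 1). In the 8 genes of caveolae and transcytosis, the process that Mfsd2a restrains, none passed between the vehicle groups, where Cavin2 (-0.24, adjusted p = 0.455), Ehd4 (0.12, adjusted p = 0.543) and Ehd2 (-0.22, adjusted p = 0.551) had the smallest p values. Their median was 0.08 there and 0.08 for VERCUR against VEH, led by caveolin's Cav1 (0.18, adjusted p = 1), Ehd4 (0.07, adjusted p = 1) and Cavin2 (0.10, adjusted p = 1).

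The Wnt pathway that induces barrier genes, Slc2a1 and Cldn5 among its known targets, was represented by 18 genes. Between the vehicle groups 3 of them were lower (6.73% of all genes) and 1 higher (5.07%) at an unadjusted p under 0.05, with a median of -0.11. Fzd4, the receptor for norrin, was counted at 529, 532 and 646 in VEH-WT, 415, 355 and 447 in VEH-CD, 445, 385 and 523 in VERCUR-WT, and 482, 611 and 632 in VERCUR-CD. All VEH-CD mice lay below all VEH-WT mice (as in 11.4% of all genes) and below all VERCUR-CD mice (3.71%), and all VERCUR-WT mice also lay below all VEH-WT mice (5.25%). For Fzd4 the log2 fold change was -0.49 between the vehicle groups (adjusted p = 0.214 by limma), -0.45 with the length gradient as a covariate, and -0.34 for VERCUR-WT against VEH-WT (adjusted p = 0.944). The feedback inhibitor Apcdd1 (0.28, adjusted p = 0.335) and the ligand Wnt7a (-0.28, adjusted p = 0.356) were next. Under VERCUR against VEH the smallest p values included those of the co-receptor Lrp5 (0.13, adjusted p = 1) and of Ndp, which encodes norrin (0.14, adjusted p = 1).

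Vegfa, the ligand of Flt1, led the 13 genes of the VEGF and angiopoietin axis. Its normalized counts were 2725, 1965 and 2043 in VEH-WT and 1694, 1709 and 1702 in VEH-CD, where the groups did not overlap (as in 11.4% of all genes), and the log2 fold change was -0.38 (adjusted p = 0.239 by limma). Without VEH-WT mouse 1, the highest, it was -0.24, and with the length gradient as a covariate -0.35. Angpt1 (0.28, adjusted p = 0.598) and Nrp1 (-0.20, adjusted p = 0.702) followed, and the list median was 0.02. Over both genotypes Nrp2 (0.24, adjusted p = 1), Tek (0.19, adjusted p = 1) and Flt4 (0.18, adjusted p = 1) had the smallest p values for VERCUR. In the 10 measured genes of endothelial activation the median was -0.18 between the vehicle groups with none past an unadjusted p of 0.05, and Vcam1 (-0.19, adjusted p = 0.505), Nos3 (-0.23, adjusted p = 0.509) and Lrg1 (0.31, adjusted p = 0.574) led. For VERCUR they were Icam1 (-0.15, adjusted p = 1), Vcam1 (0.09, adjusted p = 1) and Edn1 (-0.14, adjusted p = 1).

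Nuclear receptors and other regulators that are known to control efflux pumps such as Abcb1a were measured for 9 of 10 genes. Pparg (-0.29, adjusted p = 0.337 by limma), Rxra (-0.12, adjusted p = 0.489) and Ppara (-0.47, adjusted p = 0.499) had the smallest p values between the vehicle groups, with a median of -0.12. For VERCUR against VEH the vitamin D receptor Vdr stood at -0.70 (adjusted p = 1), at a low level of 4.75 to 22.85 normalized counts over the 12 mice, and was followed by Rxra (-0.08, adjusted p = 1) and Ppara (0.27, adjusted p = 1).

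**Figure D5:**
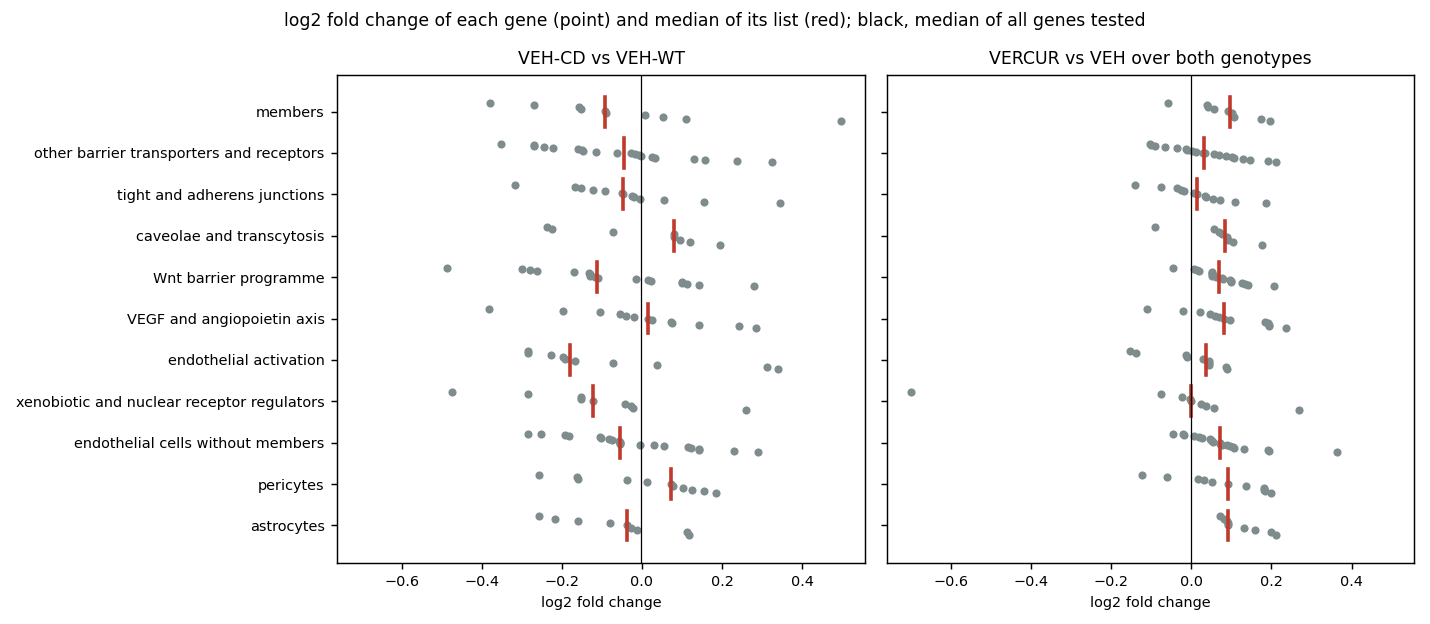
Log2 fold change of each gene (points) and list median (red) for the 10 members and 10 other lists, in VEH-CD against VEH-WT and in VERCUR against VEH over both genotypes; the black line is the median of all genes tested. The members' medians are -0.09 and 0.10, and the points of every list lie on both sides of the line in the vehicle comparison.

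Markers of other cells that a cortex sample holds gave no call either. Pericyte markers had a median of 0.07 between the vehicle groups (7 of 11 above 0), smooth muscle markers 0.03 (4 of 7) and fibroblast markers -0.09 (2 of 10). Astrocyte markers, relevant to Slc2a1 and Slco1c1, had a median of -0.04 (2 of 9 above 0), none at an unadjusted p under 0.05, and their summed level was 201200 to 258500 in VEH-WT and 194400 to 230100 in VEH-CD. Markers of red blood cells lay above 0 in 5 of 5, with a median of 0.36 and sums of 17580 to 26150 in VEH-WT and 20820 to 36000 in VEH-CD, and their part in the members' values was not tested.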

How the data were processed

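RNA of frontal cortex was extracted with the RNeasy kit, and mRNA libraries were sequenced as paired ends on a HiSeq2000 by the authors. Per the labels and the methods of the study, reads were aligned to GRCm38 with STAR 2.5.3a. The counting program, annotation and strand setting are not given in the sources used here. The authors deposited normalized counts for each mouse, reads divided by 1 factor per sample and written with decimal commas. The size of 1 read was recovered for each mouse from its low values, 100% of which came out whole within 0.1 reads, and gave the counted reads. The p values rest on 1 spread per gene, pooled over the 4 groups of 3 mice and moderated across genes. They do not use the spread of the compared groups alone.

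Values were analysed as log2(normalized count + 1) with limma 3.58.1 (R 4.3.3) for the 17111 genes with a mean of at least 10, all 12 mice in 1 fit with an intensity trend. The scripts were tested on simulated data. Fold changes are on the log2(value + 1) scale. The p values are two-sided and adjusted by Benjamini and Hochberg over all genes tested. Interactions needed the adjusted p alone. The study instead used a general linear model with a Wald test, after removing genes with a high CV. The members and lists were chosen with earlier results of these data known. All members are named. Of each barrier list, the 3 genes with the smallest p for VEH-CD against VEH-WT and for VERCUR against VEH are named, and of the cell marker lists only those with an unadjusted p under 0.05. A gene that this rule would name is not reported here. Replicate numbers were not used to pair the mice in the main fit. Exon lengths and positions are from GENCODE M21. The authors also deposited 2 tables of relative expression, which were not used, and 0 other sample columns were left out.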

Additional observations from a re-analysis of the deposited data

How the results depend on the processing

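No member was called under any of the 26 alternatives, and leaving out each mouse in turn gave 0 to 0 calls in every comparison. The removal of genes by CV took out Abcc4, Cldn5 and Pecam1 before testing, so these could not be called there. The alternative that used the adjusted p alone reused the main fit, so its values could not differ from the main ones. Of 2016 member values under the alternatives, 0 met the rule for a call, 84 changed sign and 1 had an adjusted p below 0.05 (Slco1c1, VEH-CD against VEH-WT, with sample quality weights). The replicate block also gave 0 members called. The correlation of same-numbered mice, centred within group, ran from -0.347 to 0.267 over 18 pairs. Differently numbered mice were not set beside them, so whether a number marks a shared batch was not tested. The count over all genes did depend on the setting. In VEH-CD against VEH-WT it was 44, and 349 with sample quality weights, 81 after removal of genes whose CV reached 20% in any group and 71 without VERCUR-CD mouse 2, but 23 without VEH-WT mouse 2, 26 without VEH-WT mouse 3, 24 without VEH-CD mouse 1 and 24 without VEH-CD mouse 3. In VERCUR-CD against VEH-WT it was 34 and 140 with those weights, in CD against WT 55 and 182, and in VERCUR-CD against VERCUR-WT 25 and 46. Comparisons with 0 calls over all genes had at most 6 under an alternative. The count tests planned as alternatives on recovered reads, edgeR and DESeq2, were not run. The length gradient covariate, and the alternatives for genes outside the 10 members, were chosen after seeing the data.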

Other observations

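Some marker genes outside the barrier lists had an unadjusted p under 0.05 by limma in VEH-CD against VEH-WT, and none was called. The endothelial marker Egfl7 stood at 0.29 on the log2 scale (adjusted p = 0.405). It was the only 1 of 21 endothelial markers outside the members with such a p in that comparison, where 5.07% of all genes were higher by that rule. The lymphatic and perivascular macrophage marker Lyve1 stood at -0.97 (adjusted p = 0.270), with 34.75, 57.73 and 39.98 normalized counts in VEH-WT and 17.14, 16.78 and 34.74 in VEH-CD, at a low level where 34.75 and 34.74 adjoin. The water channel Aqp1, used as a choroid plexus marker, stood at -0.75 (adjusted p = 0.38). Its level was low, with means of 9.65 normalized counts in VEH-CD and 17.48 in VEH-WT. Of the other measured choroid plexus markers, Ttr (0.72) lay above 0. Kl (-0.07), Folr1 (-0.34), Clic6 (-0.26), Kcnj13 (-0.27) and Prlr (-0.53) lay below. Of the 8 neuronal markers, Gad1 (-0.20, adjusted p = 0.221), Slc17a6 (-0.25, adjusted p = 0.317) and Gad2 (-0.24, adjusted p = 0.356) had unadjusted p values under 0.05. By that rule 6.73% of all genes were lower. The summed neuronal markers overlapped between the groups, at 564100 to 586800 in VEH-WT and 560200 to 569400 in VEH-CD.

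For VERCUR against VEH over both genotypes, Clec14a, an endothelial C-type lectin, stood at 0.36 (adjusted p = 1 by limma). The astrocyte glutamate transporter Slc1a3 stood at 0.16 (adjusted p = 1), Gad1 at -0.10 (adjusted p = 1) and Camk2a at 0.16 (adjusted p = 1). The log2 fold change of Fzd4 was 0.50 for VERCUR-CD against VEH-CD (adjusted p = 0.867), and its interaction of genotype and treatment was 0.84 (adjusted p = 0.783).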
